A study of Homo sapiens with 30 samples.

Results

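The transcription of 9 genes was followed across the 15 treatment groups of a precision run-on sequencing (PRO-seq) study in A549, a cell line from a human lung adenocarcinoma. The genes are 2 steroid receptors (NR3C1, NR3C2), 3 coactivators of the steroid receptor coactivator family (NCOA1, NCOA2, NCOA3), 2 corepressors (NCOR1, NRIP1) and 2 histone lysine methyltransferases (EHMT1, EHMT2). They were picked by gene name from the 58780 genes of the deposited count table, and all 9 passed the filter on low counts that left 22919 genes for testing. In PRO-seq, RNA polymerases that are engaged on DNA in permeabilised cells add a labelled nucleotide, and sequencing of that RNA measures transcription as it happens, not the level of mature mRNA.

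Every group was in 0.01% DMSO, untreated cells included, and each held 2 samples. Dexamethasone (Dex, a synthetic glucocorticoid) was given at 100 nM for 15 min or 3 h. GSK591, which blocks the arginine methyltransferase PRMT5, and MS023, which blocks the Type I arginine methyltransferases, were each used at 1 µM. Each was given with Dex for 3 h, alone for 2, 4 or 7 days, or for 7 days and then with Dex for 15 min or 3 h. A single untreated group, whose samples the labels name as 15 min, served all times, so changes over days in culture and effects of an inhibitor cannot be told apart. The labels do not say whether the 2 samples of a group came from separate cultures, so p-values measure only the spread between these samples, which may be technical.

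NR3C1 encodes the glucocorticoid receptor, the ligand-activated transcription factor that Dex binds, and NR3C2 encodes the mineralocorticoid receptor, which also binds glucocorticoids. On chromatin, agonist-bound receptors recruit NCOA1, NCOA2 or NCOA3, which in turn bring acetyltransferases and arginine methyltransferases to regulated genes. NCOR1 is a scaffold for histone deacetylase complexes, and NRIP1 is a corepressor that binds nuclear receptors that carry an agonist. EHMT1 and EHMT2 form a complex that methylates histone lysines at repressed genes, and both also act as coactivators of the glucocorticoid receptor. Reduced transcription of NR3C1 under glucocorticoid is a known feedback in many cell types.

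The sequences just upstream of annotated starts are shown for the 4 genes whose signal passed a test in at least 1 comparison. Each runs 5′ to 3′ in the direction of transcription, is taken from the RefSeq promoter table (build GRCh38.p14) and ends before the gene's first exon base there. Capitals mark the GC box, whose letters are GGGCGG, and the CCAAT box, named for its letters. They also mark the half-site of the glucocorticoid response element, searched as AGAACA. Each motif was searched on both strands.
NR3C1, chr5:143435513-143435762, minus strand: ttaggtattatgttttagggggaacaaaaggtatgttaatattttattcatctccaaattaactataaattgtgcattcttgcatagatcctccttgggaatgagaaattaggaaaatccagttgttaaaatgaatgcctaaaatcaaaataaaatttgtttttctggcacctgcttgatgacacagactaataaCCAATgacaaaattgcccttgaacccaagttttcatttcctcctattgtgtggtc
NRIP1, chr21:15065937-15066186, minus strand: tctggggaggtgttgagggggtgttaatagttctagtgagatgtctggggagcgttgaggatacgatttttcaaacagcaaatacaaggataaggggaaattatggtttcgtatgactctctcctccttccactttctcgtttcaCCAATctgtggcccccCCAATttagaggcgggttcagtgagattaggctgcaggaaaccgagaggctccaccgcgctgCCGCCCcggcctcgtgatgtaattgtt
NCOA3, chr20:47501637-47501886, plus strand: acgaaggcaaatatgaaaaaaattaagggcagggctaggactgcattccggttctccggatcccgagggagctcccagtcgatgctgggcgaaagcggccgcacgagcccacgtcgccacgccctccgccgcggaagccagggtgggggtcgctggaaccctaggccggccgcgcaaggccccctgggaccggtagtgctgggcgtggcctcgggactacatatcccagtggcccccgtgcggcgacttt
EHMT1, chr9:137618755-137618962, plus strand: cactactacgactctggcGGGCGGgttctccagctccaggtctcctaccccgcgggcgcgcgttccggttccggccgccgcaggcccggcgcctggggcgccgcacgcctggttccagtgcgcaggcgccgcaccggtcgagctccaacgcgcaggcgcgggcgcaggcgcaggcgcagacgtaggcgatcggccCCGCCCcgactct
The NR3C1 sequence belongs to its most upstream start and is rich in A and T, with 32.8% G and C against 50.8% for NRIP1, 66.4% for NCOA3 and 76.4% for EHMT1. It holds 1 CCAAT box. The 250 bases upstream of the other NR3C1 starts differ from it. Of these, 1 has 39.6% G and C, and the rest have 59.2% to 82.0% and 1 to 3 GC boxes each. NRIP1 holds 2 CCAAT boxes and 1 GC box, and EHMT1 holds 2 GC boxes. RefSeq windows of 250 bases upstream of a start were matched for 8 of the 9 genes, 22 windows in all, since several genes have more than 1 start. A GC box was present in 16 of the 22 windows (6 of 8 genes), against 42.6% of all 35116 windows, and a CCAAT box in 6 (4 of 8 genes), against 32% of all windows. The full glucocorticoid response element, in which the half-site is followed by a spacer and its own inverted copy, was in 0 of the 22 and in 0.00285% of all windows, and its half-site in 0 of the 22 and in 12.4% of all windows. The estrogen response element (0.0399% of all windows) and the cAMP response element TGACGTCA (1.65% of all windows) were also in 0 of the 22. A match or its absence describes these letters only.

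Total counts ran from 8441211 to 13069598 per library. Mitochondrial genes took 58.7% to 78.7% of them, which left 2541528 to 3957508 counts. The mitochondrial share was 73.4% to 76.0% in the untreated libraries and 58.7% to 66.1% in the libraries treated with MS023 for 2 days or more. Leaving the genes of mitochondria and of ribosomal RNA out of the fit changed no call for the 9 genes. The 2 libraries of MS023 with Dex 3 h agreed least of all replicate pairs (Pearson's r = 0.924 across 11117 genes, against up to 0.984). Replicate 2 of that group had a mean r of 0.924 with the 4 libraries of the other Dex 3 h groups without a 7-day treatment, and replicate 1 one of 0.974. Some tests are therefore also given from a fit without the group. Ratios of group means, coefficients of variation and correlations over the 15 groups include it and are not given without it. The Dex treatment was checked on known targets, while inhibition of the enzymes by GSK591 or MS023 was not checked. After 3 h of Dex, these targets, FKBP5 (log2 fold change 2.90), TSC22D3 (2.89) and PER1 (1.88), were higher than in untreated cells. The methyltransferase genes PRMT5 (-0.74) and PRMT1 (-0.78), which are not part of this check, were lower. TSC22D3, PER1, PRMT5 and PRMT1 share exon bases with other genes. The keratin genes KRT8 and KRT18, which A549 cells transcribe as epithelial cells, had medians of 223 and 106 CPM (counts scaled to library size). The epithelial adhesion genes EPCAM and CDH1 had medians of only 2.34 and 2.64 CPM.

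The 9 genes differed widely in their level in untreated cells. Levels are compared between genes as CPM per exonic kilobase, which assumes that the deposited counts are counts over exons. Exons cover from 1.81% (NR3C2) to 40.7% (EHMT2) of a gene, so the order over whole genes may differ. NR3C1 stood highest at 5.31 ± 0.135 CPM per exonic kilobase (SD, n = 2). NCOR1 (3.04 ± 0.0813), NCOA3 (3.02 ± 0.113) and NRIP1 (2.91 ± 0.265) followed, on the same scale, and their replicates overlapped. NCOA2 (1.55 ± 0.116), EHMT2 (1.09 ± 0.117), EHMT1 (0.948 ± 0.083) and NCOA1 (0.517 ± 0.0707) came next. Of these, EHMT2 and EHMT1 differed by little more than their SDs, and the others by more. NR3C2 was lowest at 0.158 ± 0.0569, from 7 and 13 counts in the untreated libraries. Across all 30 libraries NR3C2 had 3 to 18 counts, so only very large changes in the mineralocorticoid receptor gene were detectable at this depth.

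Across the 15 groups, the ratio of the highest to the lowest group mean was 2.50 for NRIP1 and 2.48 for NR3C2. NRIP1 ran from 16.1 CPM (GSK591 with Dex 3 h) to 40.2 CPM (MS023 for 7 days, then Dex 15 min), and the low NR3C2 from 0.475 to 1.18 CPM. NCOA3 ran from 11.9 to 25.4 CPM (ratio 2.14, highest in untreated cells) and NR3C1 from 32.3 to 67.7 CPM (ratio 2.10). NCOA2 had the smallest ratio, 1.42 (14.2 to 20.1 CPM). The pooled coefficient of variation between replicates was 6.83% for NR3C1, 8.63% for NCOA2, 8.65% for EHMT1 and 10.9% for NRIP1. It was 14.2% for NCOR1, 18.2% for EHMT2, 21.9% for NCOA1, 23.2% for NCOA3 and 40.9% for NR3C2. The same change is harder to call where it is higher.

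**Figure D1:**
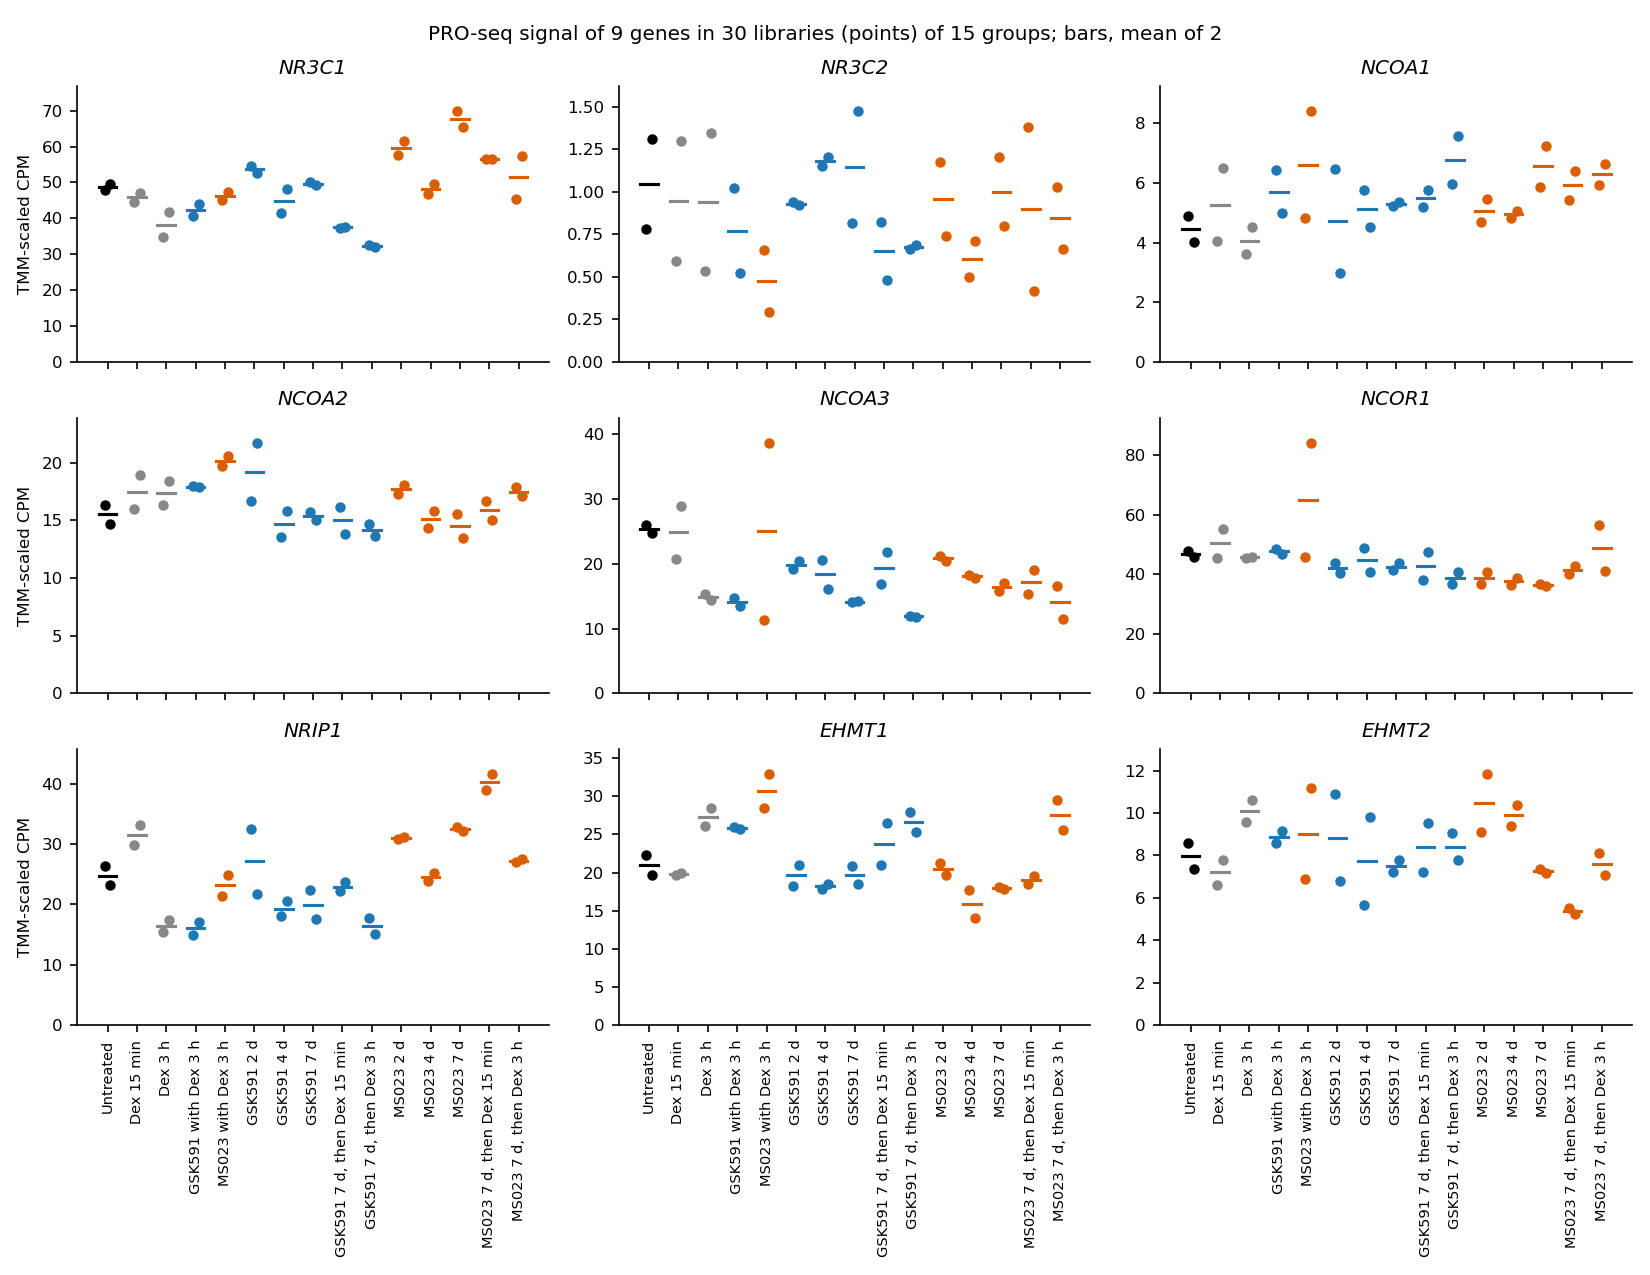
PRO-seq signal of the 9 genes in every library, in CPM after TMM scaling (y axes start at 0 and differ between panels), by group (x axis). Points are libraries and bars are means of 2; black is untreated, grey Dex alone, blue groups with GSK591 and orange groups with MS023. NR3C1 is highest at 67.7 CPM after MS023 for 7 days, and 1 library of MS023 with Dex 3 h stands at 38.6 CPM for NCOA3 and 84.1 CPM for NCOR1.

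The first comparison was Dex alone against untreated cells. At 15 min, 0 of the 9 genes passed the threshold (edgeR quasi-likelihood test, Benjamini-Hochberg adjusted p below 0.05), against 1.26% of all genes tested. DESeq2 also called 0 at that time, and 1 gene had an unadjusted p below 0.05. This was NRIP1, with 29.9 and 33.2 CPM at 15 min against 26.4 and 23.2 CPM in untreated cells. Both Dex libraries lay above both untreated ones, with a log2 fold change of 0.35 (95% interval 0.07 to 0.63). After 3 h, NR3C1 and NRIP1 were lower and no other gene of the 9 passed, 2 of 9 against 10.5% of all genes (4.41% lower).

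The glucocorticoid receptor gene itself had 34.8 and 41.8 CPM after 3 h of Dex, against 47.8 and 49.6 CPM in untreated cells. All of the treated values lay below the untreated ones, and the NR3C1 log2 fold change was -0.35 (SE 0.114, edgeR adjusted p = 0.0365). That is a fall to 0.784 times the untreated level. The call was lost without untreated replicate 1 (log2 fold change -0.38), untreated replicate 2 (-0.32) or Dex 3 h replicate 1 (-0.22). DESeq2 gave NR3C1 the same log2 fold change and an adjusted p of 0.109. The edgeR adjusted p was 0.0581 in a fit of the compared groups alone, 0.0936 with no filter on low counts and 0.769 with scaling by total counts (-0.17), so the call was lost in each.

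NRIP1, the corepressor of agonist-bound receptors, fell further. Its values were 15.4 and 17.5 CPM after 3 h against 26.4 and 23.2 CPM, with no overlap. The log2 fold change was -0.59 (SE 0.148, edgeR adjusted p = 0.00429). At 15 min the same gene had stood above the untreated libraries, by an amount that did not pass. The 3 h call was lost without untreated replicate 1 or Dex 3 h replicate 1 (log2 fold change -0.50 in each case), and with total counts (-0.41).

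The coactivator gene NCOA3 gave the largest difference of the 9 genes after 3 h, 15.3 and 14.4 CPM against 26.0 and 24.7 CPM in untreated cells. Its 2 Dex libraries were close together and far below the untreated ones, but the log2 fold change of -0.77 had an edgeR adjusted p of 0.227 (SE 0.366). The test uses 1 spread per gene over all 15 groups, and for NCOA3 that spread included 11.4 and 38.6 CPM in the 2 libraries of MS023 with Dex 3 h. In a fit without that group, chosen after its values were seen, the NCOA3 log2 fold change was also -0.77 and the edgeR adjusted p 1.70e-04. In a fit of the compared groups alone, an alternative planned at the outset, it was 2.91e-04. NCOA1 (log2 fold change -0.14) and NCOA2 (0.16) did not pass in any of these fits.

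NCOR1 had 45.6 and 45.7 CPM after 3 h of Dex against 47.7 and 45.9 CPM, a log2 fold change of -0.04 (95% interval -0.46 to 0.39). EHMT1 had 26.1 and 28.5 CPM against 22.4 and 19.7 CPM. Both Dex libraries were higher, and the log2 fold change of 0.38 (SE 0.135) missed the threshold (edgeR adjusted p = 0.0643). It passed in the fit without MS023 with Dex 3 h (edgeR adjusted p = 0.0459). Its partner EHMT2 had 9.57 and 10.6 CPM against 8.56 and 7.36 CPM, a log2 fold change of 0.34 that did not pass (edgeR adjusted p = 0.391).

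Other genes of the same machinery, from lists of receptors, coactivators, corepressors and EHMT partners, were read in the same comparison. Of all genes tested, 10.5% passed there in either direction. Of 7 further steroid or steroid-like receptor genes, 4 had enough counts to be tested, and ESR1, the estrogen receptor alpha gene, fell after 3 h of Dex from 2.58 to 0.600 CPM (log2 fold change -2.04, edgeR adjusted p = 0.00513). Its untreated libraries held only 22 and 27 counts, and a same-strand gene overlaps its exons. Of 24 tested coactivator genes, 3 rose and 2 fell. PPARGC1B, a coactivator of nuclear receptors in energy metabolism, rose by 0.87 on the log2 scale, and TGFB1I1, a coactivator that also acts at focal adhesions, by 0.58. NCOA7 (-1.17) and PRMT1 (-0.78), the main Type I arginine methyltransferase, fell. Of 15 tested corepressor genes, RCOR1 rose (0.90) and TBL1XR1 (-0.94) and HDAC1 (-0.67) fell. Of 9 EHMT partners and readers, 0 passed. The median log2 fold change was -0.04 over the coactivators, -0.08 over the corepressors and -0.01 over all genes. Opposite-strand genes overlap exons of PRMT1, TGFB1I1 and TBL1XR1, and the sources used here do not say whether the counting used strand.

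The second comparison asked whether an inhibitor given together with Dex for 3 h altered the level reached with Dex alone. With GSK591, 0 of the 9 genes passed (0% of all genes), and 0 had an unadjusted p below 0.05. NR3C1 had 40.5 and 44.1 CPM with GSK591 against 34.8 and 41.8 CPM with Dex alone, and NRIP1 had 15.0 and 17.2 CPM against 15.4 and 17.5 CPM. The groups overlapped for both genes. The 95% intervals of the log2 difference were -0.08 to 0.38 for NR3C1 and -0.34 to 0.28 for NRIP1. DESeq2 called 0 with either inhibitor.

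With MS023, 0 of the 9 passed (0.196% of all genes) and 4 had an unadjusted p below 0.05. NRIP1 was nearest to the threshold, at 21.4 and 24.9 CPM with MS023 and Dex against 15.4 and 17.5 CPM with Dex alone (log2 difference 0.50, edgeR adjusted p = 0.113). NR3C1 had 45.1 and 47.3 CPM against 34.8 and 41.8 CPM (log2 difference 0.27, edgeR adjusted p = 0.252). These groups did not overlap. The 2 MS023 libraries themselves went apart for other genes of the 9. Replicate 1 had 11.4 CPM for NCOA3, 45.8 CPM for NCOR1 and 4.81 CPM for NCOA1, while replicate 2 had 38.6, 84.1 and 8.41 CPM. Without replicate 1, 4 genes passed: NCOA3 (log2 difference 1.37), NCOA1 (1.04), NCOR1 (0.87) and NRIP1 (0.59). Without replicate 2, 0 passed.

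The third comparison followed each inhibitor alone over time. With GSK591, 0 of the 9 genes passed at 2 days (5.64% of all genes), 4 days (17.2%) or 7 days (13.2%), and the numbers with an unadjusted p below 0.05 were 1, 1 and 2. DESeq2 called 0 at each time. In the counts NR3C1 stayed near its untreated level, with 50.2 and 49.2 CPM at 7 days against 47.8 and 49.6 CPM (log2 fold change 0.03, 95% interval -0.20 to 0.26). The authors' deposited tables, described below, call NR3C1 lower at 2, 4 and 7 days.

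NCOA3 was again the gene with the largest difference. It had 19.2 and 20.5 CPM after 2 days of GSK591, 20.6 and 16.1 CPM after 4 days and 14.1 and 14.2 CPM after 7 days, against 26.0 and 24.7 CPM. Every GSK591 library lay below both untreated ones. The log2 fold change at 7 days was -0.84 (SE 0.373, edgeR adjusted p = 0.163). Without the group MS023 with Dex 3 h it was also -0.84 with an edgeR adjusted p of 5.68e-05, and at 4 days -0.46 with 0.0175. NRIP1 had 18.1 and 20.6 CPM at 4 days and 22.3 and 17.6 CPM at 7 days. All 4 values were below the untreated ones, with log2 fold changes of -0.36 (edgeR adjusted p = 0.0761) and -0.31 (0.170).

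With MS023, 0 of the 9 passed at 2 days (10.4% of all genes), 1 at 4 days (14.2%) and 2 at 7 days (13.6%, 7.13% higher). At 2 days, 2 genes had an unadjusted p below 0.05 and DESeq2 called 0. NR3C1 had 57.8 and 61.5 CPM at 2 days, 46.8 and 49.6 CPM at 4 days and 69.9 and 65.5 CPM at 7 days. It was thus above both untreated libraries (47.8 and 49.6 CPM) at 2 and 7 days, and at 4 days 1 library lay below them. At 7 days the NR3C1 log2 fold change was 0.48 (SE 0.109, edgeR adjusted p = 0.00158), a level 1.39 times the untreated one, and the call held in each of the 12 alternative fits. Of these fits, scaling by total counts moves the median of all genes up by 1.02 on the log2 scale, so it could hardly end a rise. All of them used the deposited counts, and the authors' deposited table does not call NR3C1 at this time.

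NRIP1 took the same course under MS023. It had 30.8 and 31.1 CPM at 2 days, 23.9 and 25.3 CPM at 4 days and 32.9 and 32.2 CPM at 7 days, against 26.4 and 23.2 CPM in untreated cells. The 7-day NRIP1 log2 fold change was 0.40 (SE 0.134, edgeR adjusted p = 0.0402). Leaving out any of the 4 libraries compared ended the call, with log2 fold changes of 0.49 (without untreated replicate 1), 0.31 (without untreated replicate 2), 0.38 (without MS023 replicate 1) and 0.41 (without MS023 replicate 2). DESeq2 gave NRIP1 an adjusted p of 0.123.

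EHMT1 was lower after 4 days of MS023, at 17.8 and 14.1 CPM against 22.4 and 19.7 CPM. The log2 fold change was -0.40 (SE 0.136, edgeR adjusted p = 0.0385), and scaling by total counts turned it to 0.36. The call was also lost without untreated replicate 1 (-0.31), untreated replicate 2 (-0.48) or MS023 replicate 2 (-0.24), with no filter (edgeR adjusted p = 0.133) and in DESeq2 (adjusted p = 0.147). The authors' deposited table does not call EHMT1 at 4 days. At 7 days EHMT1 had 18.1 and 17.9 CPM, a log2 fold change of -0.23 that did not pass (edgeR adjusted p = 0.283).

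NCOA3 had 15.7 and 17.0 CPM after 7 days of MS023, below both untreated libraries, with a log2 fold change of -0.63 that did not pass (edgeR adjusted p = 0.263) and passed without the group MS023 with Dex 3 h (8.73e-04). NCOR1 had 36.8 and 35.9 CPM, also below both untreated libraries (log2 fold change -0.36, edgeR adjusted p = 0.259, and 0.0209 without that group). Scaling by total counts moves the median of all genes by 1.02 on the log2 scale in this comparison and turned the log2 fold changes of NCOA3 to 0.39 and of NCOR1 to 0.66, both below that shift.

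The time courses of the 2 inhibitors parted for NR3C1 and NRIP1. GSK591 was compared with MS023 directly at matched days, and 0 of 9 genes differed at 2 days (2.69% of all genes; 0 with an unadjusted p below 0.05, and 0 by DESeq2), 0 at 4 days (6.03%; 1 with an unadjusted p below 0.05) and 2 at 7 days (9.38%, 4.47% lower with GSK591). At 7 days NR3C1 had 50.2 and 49.2 CPM with GSK591 against 69.9 and 65.5 CPM with MS023, a log2 difference of -0.45 (SE 0.11, edgeR adjusted p = 0.00472). NRIP1 had 22.3 and 17.6 CPM against 32.9 and 32.2 CPM, a log2 difference of -0.70 (SE 0.14, edgeR adjusted p = 3.77e-04). In both genes the 2 inhibitor groups did not overlap. Both calls were lost without GSK591 replicate 2 (NR3C1 -0.43, NRIP1 -0.54), and that of NR3C1 also without MS023 replicate 1 (-0.39). NCOA3 differed by -0.21 between the inhibitors at 7 days, with a 95% interval of -1.01 to 0.59.

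**Figure D2:**
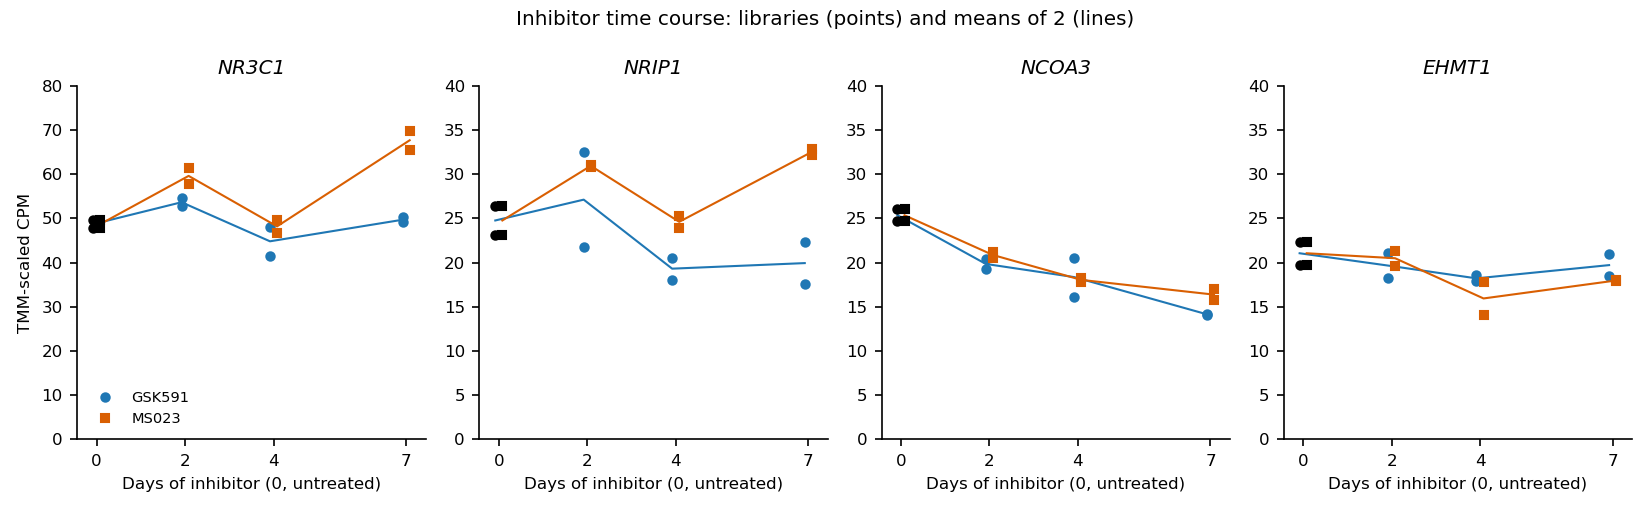
CPM (y axis) of NR3C1, NRIP1, NCOA3 and EHMT1 over days of inhibitor (x axis, 0 is untreated), with libraries as points and lines through the means of 2. Blue circles are GSK591, orange squares MS023 and black symbols the untreated libraries, which both lines share. At 7 days NR3C1 and NRIP1 lie higher with MS023 (67.7 and 32.5 CPM) than with GSK591 (49.7 and 19.9 CPM), while NCOA3 lies below its untreated level with both.

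At 7 days the related genes outside the 9 moved in both directions. Of all genes tested, 13.2% passed with GSK591 and 13.6% with MS023 at that time. Of the estrogen receptor genes, ESR2 was lower with GSK591 (log2 fold change -1.07) and ESR1 was lower with MS023 (-1.36), and both overlap exons of a gene on the same strand. Each was also below its untreated level with the other inhibitor, without passing (ESR1 -0.98 with GSK591, ESR2 -0.63 with MS023). In GSK591 against MS023 at 7 days, ESR1 (edgeR adjusted p = 0.734) and ESR2 (0.330) did not pass, so a difference between the inhibitors is not shown. Of 24 coactivator genes, GSK591 gave 3 higher and 2 lower, led by CALCOCO1 (0.77), TGFB1I1 (0.57), PPARGC1B (-0.58) and PRMT1 (-0.50). MS023 gave 0 higher and 4 lower, led by PPARGC1B (-0.74) and TGFB1I1 (-0.68). TGFB1I1 thus passed in opposite directions, from 14.1 CPM in untreated cells to 20.9 CPM with GSK591 and 8.82 CPM with MS023. Of 15 corepressor genes, KDM1A (-0.56), a histone demethylase, and LCOR (-0.42) were lower with GSK591. Of 9 EHMT partners, SUV39H2 (-0.92), another histone lysine methyltransferase, and CBX3 (-0.61), a reader of methylated histone, were lower with GSK591, and 0 passed with MS023. The medians over the EHMT partners were -0.24 with GSK591 and -0.30 with MS023, against -0.0049 and 0.0061 over all genes.

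Markers of other cell types were read beside these results. In MS023-treated cells at 7 days the 4 fibroblast genes summed to 7.51 to 9.19 CPM, against 3.78 to 5.14 CPM in untreated cells, and COL1A1 rose (log2 fold change 1.14). The 3 endothelial genes summed to 1.42 to 2.24 CPM against 0.705 to 1 CPM. The 4 leukocyte genes summed to 4.27 to 4.39 CPM against 1.56 to 3.43 CPM. With GSK591 at 7 days the leukocyte sum was likewise above the untreated range, at 3.89 to 5.58 CPM, while the fibroblast sum (4.56 to 7.09 CPM) and the endothelial sum (0.804 to 1.39 CPM) overlapped it. The sum of the 5 epithelial genes was 303 to 315 CPM with MS023 and 311 to 318 CPM with GSK591 at 7 days, 501 to 534 CPM after 3 h of Dex and 291 to 309 CPM in untreated cells. KRT8 and KRT18 made up most of this sum, and the 5 genes did not move together. After 3 h of Dex, KRT8 (log2 fold change 0.93) and KRT18 (0.61) were called higher and the keratin gene KRT19 lower (-0.64). EPCAM (-0.71) and CDH1 (-0.19) were not called there. At 7 days GSK591 was lower than MS023 for EPCAM (-1.46) and higher for CDH1 (1.04) and KRT19 (0.71), all called. KRT8 and KRT18 were not called in that test. None of the 16 marker genes was at 0 in all libraries, and the part of such differences in the results for the 9 genes was not tested.

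The fourth comparison was the response to Dex in cells that had received an inhibitor for 7 days, each against that inhibitor alone. NR3C1 fell after 3 h of Dex in both settings. After GSK591 it had 32.6 and 32.0 CPM against 50.2 and 49.2 CPM, a log2 fold change of -0.62 (SE 0.116, edgeR adjusted p = 1.03e-04). After MS023 it had 45.3 and 57.5 CPM against 69.9 and 65.5 CPM, a log2 fold change of -0.40 (SE 0.106, edgeR adjusted p = 0.00752). The Dex libraries lay below the inhibitor-only ones in each case. The MS023 call was lost without MS023 7 days replicate 1 (-0.34) or the 3 h replicate 1 (-0.23), and neither of the 2 GSK591 samples nor the 2 that then received Dex for 3 h ended the other when left out. With total counts both NR3C1 calls were lost (-0.42 after GSK591, -0.41 after MS023).

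EHMT1 rose after 3 h of Dex in both settings. After MS023 it had 29.6 and 25.6 CPM against 18.1 and 17.9 CPM, a log2 fold change of 0.62 (SE 0.128, edgeR adjusted p = 3.75e-04). After GSK591 it had 27.9 and 25.3 CPM against 20.9 and 18.5 CPM, a log2 fold change of 0.43 (SE 0.138, edgeR adjusted p = 0.0348). Groups did not overlap. The EHMT1 call after GSK591 was lost when any 1 of the 4 libraries was left out, with log2 fold changes of 0.34 (without GSK591 replicate 2), 0.36 (without the 3 h replicate 1), 0.50 (without the 3 h replicate 2) and 0.53 (without GSK591 replicate 1), while leaving out a library did not end the call after MS023. The call after GSK591 was also lost with no filter (edgeR adjusted p = 0.0684) and in DESeq2 (adjusted p = 0.140), and both EHMT1 calls with total counts (0.64 after GSK591, 0.61 after MS023). These were 2 of the 9 genes in each setting, against 9.85% of all genes after GSK591 and 11.1% after MS023.

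At 15 min of Dex after an inhibitor, NR3C1 passed after GSK591, 1 of 9 against 2.09% of all genes. It had 37.3 and 37.6 CPM against 50.2 and 49.2 CPM, a log2 fold change of -0.41 (SE 0.115, edgeR adjusted p = 0.0440). The call was lost without any 1 of the 4 libraries, with log2 fold changes of -0.39 (without GSK591 replicate 1), -0.43 (without GSK591 replicate 2), -0.41 (without the 15 min replicate 1) and -0.42 (without the 15 min replicate 2), and DESeq2 gave NR3C1 an adjusted p of 0.130. It was also lost with DESeq2's size factors in edgeR (adjusted p = 0.0504), no filter (0.0607), the compared groups alone (0.146) and total counts (0.794). After MS023, 0 of 9 passed (2.07% of all genes), 2 had an unadjusted p below 0.05, and DESeq2 called 0. NRIP1 had 38.9 and 41.5 CPM at 15 min after MS023 against 32.9 and 32.2 CPM, above both, with a log2 fold change of 0.31 that did not pass (edgeR adjusted p = 0.304).

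Whether an inhibitor altered the response to Dex was tested as an interaction, the response after the inhibitor minus the response without it. Over 4 such tests, 0 of the 9 genes passed in any, against 0.00436% (GSK591, 15 min), 0.223% (GSK591, 3 h), 0.00436% (MS023, 15 min) and 0.223% (MS023, 3 h) of all genes. No gene of the 9 had an unadjusted p below 0.05 in any of the 4, and DESeq2 called 0. For NR3C1 at 3 h the interaction was -0.27 with GSK591 (95% interval -0.60 to 0.06) and -0.05 with MS023 (-0.36 to 0.27). For NRIP1 it was 0.31 with GSK591 (-0.12 to 0.73) and 0.34 with MS023 (-0.06 to 0.73). The intervals include differences as large as the response itself, so the NRIP1 response, which passed without an inhibitor and did not pass after one (log2 fold changes -0.29 after GSK591 and -0.26 after MS023), is not shown to differ.

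**Figure D3:**
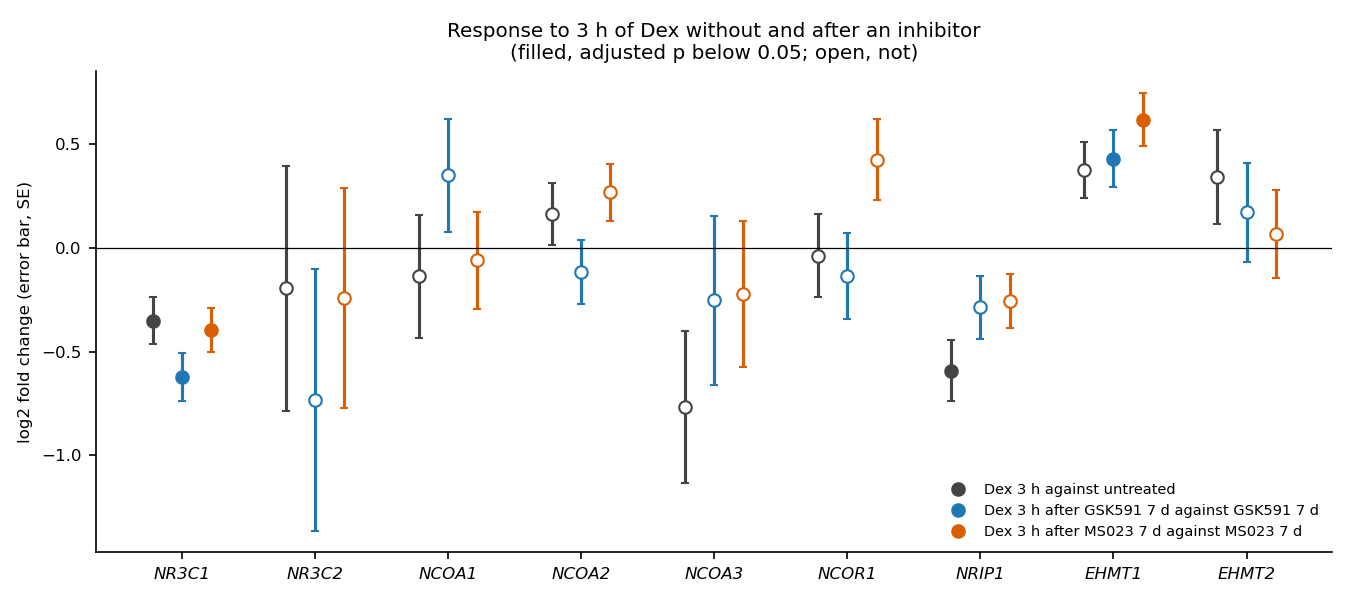
Log2 fold change after 3 h of Dex (y axis, error bars are SE) for each of the 9 genes (x axis) against untreated cells (grey), after 7 days of GSK591 against GSK591 alone (blue) and after 7 days of MS023 against MS023 alone (orange), 2 libraries per group. Filled symbols passed the threshold. NR3C1 is lower in all 3 settings (-0.35, -0.62 and -0.40), and EHMT1 is above 0 in all 3 (0.38, 0.43 and 0.62).

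The 6 groups that had both Dex and an inhibitor were also set against untreated cells. NRIP1 was lower with GSK591 and Dex for 3 h (log2 fold change -0.62, edgeR adjusted p = 0.00216), 1 of 9 against 11.9% of all genes, and the call was lost without untreated replicate 1 or GSK591 with Dex replicate 1 (-0.53 each) and with total counts (-0.34). EHMT1 was higher with MS023 and Dex for 3 h (0.55, edgeR adjusted p = 0.00303), 1 of 9 against 12% of all genes, and this was lost without untreated replicate 2 (0.45) or MS023 with Dex replicate 2 (0.43) and in the compared groups alone (edgeR adjusted p = 0.105). NCOA3 in that last group had a log2 fold change of 0.60 without replicate 1 and -1.16 without replicate 2, so no value is given for it.

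After 7 days of GSK591 and 3 h of Dex, NR3C1 (-0.59, edgeR adjusted p = 7.72e-05), NRIP1 (-0.59, 0.00173) and NCOA3 (-1.09, 0.0417) were all lower than in untreated cells, 3 of 9 against 26.8% of all genes (13% lower). NCOA3 had 11.9 and 11.8 CPM there against 26.0 and 24.7 CPM, the lowest group mean of the 15 for this gene. Its call was lost without any 1 of the 4 libraries (untreated replicate 1, -1.06; untreated replicate 2, -1.14; treated replicate 1, -1.11; treated replicate 2, -1.09), and that of NRIP1 without treated replicate 2 (-0.48). With total counts all 3 were lost (NR3C1 -0.41, NRIP1 -0.40, NCOA3 -0.91), and that of NCOA3 also with no filter (edgeR adjusted p = 0.0816). After 7 days of GSK591 and 15 min of Dex, NR3C1 was lower (-0.38, edgeR adjusted p = 0.0165), 1 of 9 against 15.5% of all genes. That call was lost without untreated replicate 1 (-0.41), untreated replicate 2 (-0.36), treated replicate 1 (-0.38) or treated replicate 2 (-0.39). NR3C1 was also not called there with total counts (-0.35), in the compared groups alone (edgeR adjusted p = 0.0719) or in DESeq2 (adjusted p = 0.0899).

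After 7 days of MS023 and 15 min of Dex, NRIP1 was higher than in untreated cells, at 38.9 and 41.5 CPM against 26.4 and 23.2 CPM (log2 fold change 0.70, SE 0.134, edgeR adjusted p = 1.10e-04), 1 of 9 against 17.2% of all genes. This call held in all 12 alternative fits. Of these, scaling by total counts moves the median of all genes up by 0.87 on the log2 scale here, so it could hardly end a rise. After 7 days of MS023 and 3 h of Dex, EHMT1 was higher (0.39, edgeR adjusted p = 0.0235), 1 of 9 against 21.9% of all genes, and the call was lost without untreated replicate 2 (0.31) or treated replicate 1 (0.29) and in DESeq2 (adjusted p = 0.0801). NR3C1 had 45.3 and 57.5 CPM in that group, on either side of its untreated level (log2 fold change 0.08, 95% interval -0.14 to 0.30).

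The authors' deposited tables hold the same 14 comparisons with untreated cells from another counting of the same libraries. Their mean signal per gene was 1.42 times the mean of the deposited counts for EHMT2, whose exons cover 40.7% of the gene, and 2.77 to 9.94 times for the other 8, whose exons cover 1.81% to 8.85%. Over the 126 values (9 genes in 14 comparisons) the authors' deposited tables call 58 and the deposited counts 13, against 22.4% and 13.7% of all genes over the same comparisons. Of these, 11 were called by both, all 11 in the same direction. The 2 called only from the counts were EHMT1 at MS023 4 days and NR3C1 at MS023 7 days. Of the 47 called only in the authors' deposited tables, 11 had the opposite sign in the counts.

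The 3 h differences of NR3C1 and NRIP1 are larger there, and that of NCOA3 is smaller. In the authors' deposited table NR3C1 has a log2 fold change of -0.95 and NRIP1 of -1.11, against -0.35 and -0.59 from the counts. The authors' deposited table also calls NCOA3 lower (-0.48, adjusted p = 5.75e-08, against -0.77 from the counts) and EHMT1 (0.53) and NCOR1 (0.24) higher, 5 of 9 against 21.9% of its genes. For GSK591 at 7 days the authors' deposited table calls 6 of 9 lower, against 23.8% of its genes called (13% lower), with NCOA3 (-0.82) and NRIP1 (-0.69) the largest. NR3C1 is among these 6, and the authors' deposited tables also call it lower at 2 and 4 days of GSK591. The counts do not call NR3C1 at any of these times, so the sources part here. For GSK591 for 7 days then Dex 3 h the authors' deposited table gives NR3C1 -1.34, NRIP1 -1.17 and NCOA3 -0.98, 3 of the 4 genes it calls, against 34.2% of its genes.

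The sources also part for MS023 with Dex and for the glucocorticoid receptor gene under MS023. For MS023 with Dex 3 h the authors' deposited table lists NR3C1 at -0.80, NRIP1 at -0.94 and NCOA3 at -0.48, 3 of the 6 genes it calls (19.8% of its genes), where the counts gave NR3C1 -0.08 and NRIP1 -0.09, neither called. For MS023 for 7 days then Dex 3 h it lists NR3C1 at -0.72 (called, 6 of 9 against 30% of its genes), where the counts gave 0.08. At 2 days of MS023 the authors' deposited table calls NR3C1 (-0.30), NRIP1 (-0.31) and NCOR1 (-0.33) lower, 3 of 9 against 17.7% of its genes (9.26% lower), while the counts gave NR3C1 0.29 and NRIP1 0.32, above 0 and not called. At 4 days the authors' deposited table calls NR3C1, NCOA3 and NCOR1 lower, where the counts called only EHMT1 lower. At 7 days both sources list NRIP1 higher (0.28 in the authors' deposited table, 0.40 from the counts), but the authors' deposited table does not call NR3C1 (0.11, adjusted p = 0.249). It calls 3 of 9 at that time, against 22% of its genes.

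**Figure D4:**
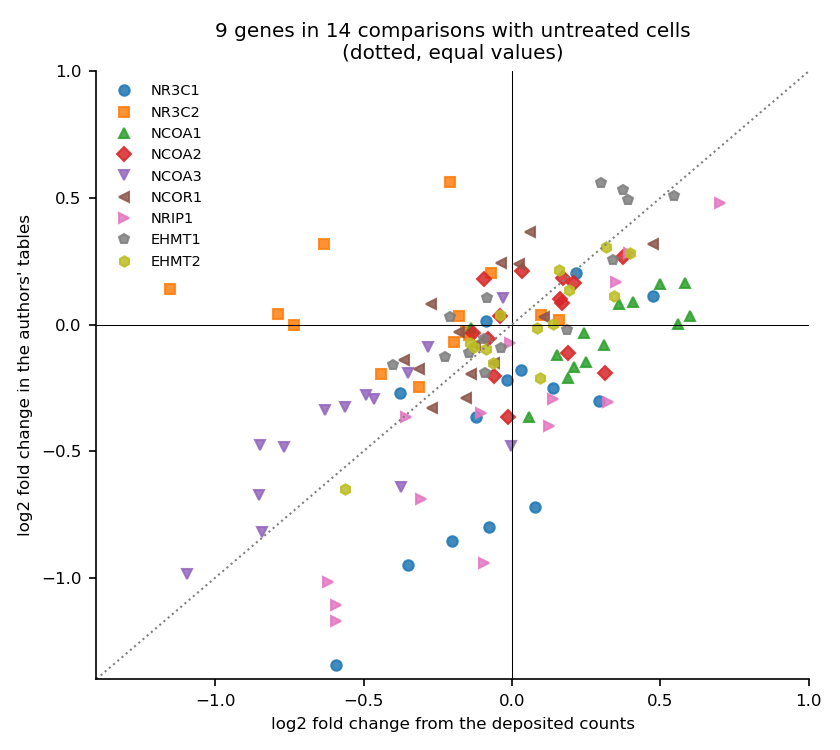
Log2 fold change against untreated cells in the authors' deposited tables (y axis) and from the deposited counts (x axis), for 9 genes in 14 comparisons, 126 points with 1 symbol per gene; points share the untreated libraries and are not independent. The dotted line marks equal values. NR3C1 and NRIP1 reach -1.34 and -1.17 in the authors' deposited tables and do not go below -0.59 and -0.62 in the counts.

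The pattern of each gene over the 15 groups was described by the Pearson correlation of group-mean log2 CPM with 10303 other named genes of at least 5 CPM. These correlations share libraries and depth, rest on 15 points and carry no test. NR3C1 was most like KCNF1 (r = 0.916) and LINC01816 (0.905), and NRIP1 most like CHMP1B (0.953) and PPP4R3A (0.926). EHMT1 was most like TGFBR1 (0.956), a receptor gene of transforming growth factor beta, and BAIAP2 (0.945). NCOA3 was most like CLINT1 (0.927) and PMM2 (0.916), and NCOR1 most like JAK1 (0.919) and RSRC2 (0.891). NCOA2 was most like another coactivator gene, NCOA4 (0.904), and SLC35D2 (0.886), and EHMT2 most like NOL6 (0.878) and LRWD1 (0.868). For the low NCOA1 (REV3L, 0.786; PPP1R13B, 0.769) and NR3C2 (ZNF76, 0.783; MPPE1, 0.763) the best values were lower. Among the 36 pairs within the 9 genes, NR3C1 and NRIP1 had the highest r (0.769), and NR3C1 and EHMT1 the lowest (-0.533).

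The positions follow GENCODE 29 (hg38), which matches all gene identifiers of the count table. NR3C1 (ENSG00000113580.14) lies at chromosome 5, 143277931 to 143435512, minus strand, and NR3C2 (ENSG00000151623.14) at chromosome 4, 148078762 to 148444698, minus strand. No other annotated gene overlaps their exons. NCOA1 (ENSG00000084676.15) lies at chromosome 2, 24491914 to 24770702, plus strand, NCOA2 (ENSG00000140396.12) on chromosome 8, minus strand, and NCOA3 (ENSG00000124151.18) at chromosome 20, 47501902 to 47656877, plus strand. Of the NCOA3 exon bases, 1.14% are shared with an opposite-strand gene. NCOR1 (ENSG00000141027.20) lies at chromosome 17, 16029157 to 16218185, minus strand, shares 3.30% of its exon bases with opposite-strand genes and has pseudogenes in the RefSeq gene table that could take some of its reads. NRIP1 (ENSG00000180530.10) lies at chromosome 21, 14961235 to 15065936, minus strand, and shares 1.02% of its exon bases with a same-strand gene and 6.61% with an opposite-strand gene. EHMT1 (ENSG00000181090.20) lies at chromosome 9, 137618963 to 137870016, plus strand, sharing 0.234% and 4.02%, and EHMT2 (ENSG00000204371.11) at chromosome 6, 31879759 to 31897687, minus strand, sharing 8.12% with its antisense gene.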

How the data were processed

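PRO-seq libraries of A549 cells, 30 in 15 groups of 2, were grouped by their labels. The authors' count table gives whole-number counts per gene, with no normalization. Per the submitters' processing notes, reads were handled with Subread and featureCounts 2.0.1 on hg38; the feature type, the strand setting and the counts' further options are not given in the sources used here. The authors also deposited 14 tables of treated against untreated cells, each with a mean signal over libraries, a log2 fold change with its standard error, and a p-value with its adjusted value.

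Genes were matched to GENCODE 29 (all 58780). The table gives no symbol for 22731 of them. TMM scaling, a filter on low counts (edgeR filterByExpr, minimum count 10, minimum total 15) and 1 robust quasi-likelihood fit of all 15 groups (R 4.3.3, edgeR 4.0.16, limma 3.58.1) gave 27 comparisons, with Benjamini-Hochberg adjustment over 22919 genes and a threshold of 0.05. The SE is the absolute fold change (log2) divided by the root of the F statistic. The script was tested on simulated data. The biological coefficient of variation common to all genes was 10.6%. Alternatives were DESeq2 (1.42.0), its size factors in edgeR, total counts, no filter, the compared groups alone, a replicate block, no mitochondrial or ribosomal RNA genes, and each library left out. A fit without MS023 with Dex 3 h was added after seeing the data.

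The 9 genes and the lists beside them were chosen with earlier results of these data known. The text names all 9 genes and the 5 genes FKBP5, TSC22D3, PER1, PRMT5 and PRMT1. It names the 2 genes most like each of the 9 (Pearson correlation of group-mean log2 CPM with 0.5 CPM added, mean of at least 5 CPM). From each list it names, among called genes, the 2 that rose most and the 2 that fell most, after 3 h of Dex and at 7 days of each inhibitor. KRT8, KRT18, KRT19, EPCAM, CDH1 and COL1A1 were named from the marker lists after their values were seen. Some list genes that the rule would name are not reported here.

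The same-numbered samples of different groups did not deviate together. The correlation of their deviations ran from -0.292 to 0.234 over the 27 comparisons (median -0.02), so the numbers are not treated as pairs.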

Additional observations from a re-analysis of the deposited data

Results flagged for a closer look

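At 7 days the effects of the 2 inhibitors differed for NR3C1 and NRIP1 in a direct test of GSK591 against MS023. NR3C1, the glucocorticoid receptor gene, was lower with GSK591 by a log2 difference of -0.45 (edgeR adjusted p = 0.00472), with both GSK591 libraries below both MS023 libraries. NRIP1, the corepressor gene, was lower by -0.70 (edgeR adjusted p = 3.77e-04), also in both libraries. Leaving out GSK591 replicate 2 ended both calls.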

How the results depend on the processing

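Of the 20 calls among 243 tests (9 genes, 27 comparisons), 2 held under every alternative run, NR3C1 at MS023 7 days and NRIP1 at MS023 7 days then Dex 15 min against untreated, and 5, these 2 included, held under all but total-count scaling. The first 2 are rises in groups with 7 days of MS023. There total counts move the median of all genes up by 1.02 and 0.87 on the log2 scale, so that fit could hardly end them. Every one of these runs used the deposited counts. The authors' deposited tables also call the NRIP1 rise but do not call the NR3C1 rise. Total counts ended 12 of the 20 (both with Dex alone, all 5 for Dex after an inhibitor, and 5 of the 8 for Dex with or after an inhibitor against untreated cells, all in groups with GSK591) and turned EHMT1 at MS023 4 days. With Dex alone, 2 calls became 0 with total counts, 1 with no filter, 1 with DESeq2, 2 in the compared groups alone (NR3C1 lost, NCOA3 gained), 4 without the group MS023 with Dex 3 h, and 0 to 2 with a library left out. For an inhibitor given with Dex, 0 became 1 with no filter (NCOR1) and 0 to 4 with a library left out. For GSK591 alone, 0 became 3 in the compared groups alone, 2 without the group MS023 with Dex 3 h, and 0 with any library left out. For MS023 alone, 3 became 18 with total counts, 1 with DESeq2, 10 in the compared groups alone, 7 without the group MS023 with Dex 3 h, and 1 to 3 with a library left out. For Dex after an inhibitor, 5 became 0 with total counts, 3 with DESeq2, and 3 to 5 with a library left out. The interactions stayed at 0 in every fit run, library omissions included. For GSK591 against MS023, 2 became 8 with total counts and 0 to 2 with a library left out. For Dex with or after an inhibitor against untreated cells, 8 became 17 with total counts and 4 to 11 with a library left out. Causes of these moves were not tested.

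Scaling by total counts turned 16 log2 fold changes that passed the threshold before or after it; others changed sign and passed in neither fit, NCOA3 at MS023 7 days (0.39) among them. The 16 were EHMT1 at MS023 2 days (0.64); NR3C1 (0.73), NCOA2 (0.71), NRIP1 (0.74) and EHMT1 (0.36) at MS023 4 days; and NCOA2 (0.93), NCOR1 (0.66), EHMT1 (0.80) and EHMT2 (0.89) at MS023 7 days. For GSK591 against MS023 at 7 days they were NCOA2 (-0.96), NCOR1 (-0.82), EHMT1 (-0.90) and EHMT2 (-1.01). Against untreated cells they were NCOR1 (0.70) and EHMT1 (0.74) after MS023 then Dex 15 min, and EHMT2 (0.95) after MS023 then Dex 3 h. That scaling shifts the median of all genes by 0.67, 0.74 and 1.02 for MS023 at 2, 4 and 7 days. Without MS023 with Dex 3 h replicate 1, NCOA3 in that group against untreated turned to 0.60, and it was -1.16 without replicate 2.

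The replicate block left all 243 results on their side of the threshold, with counts of calls of 2, 0, 0, 3, 5, 0, 2 and 8 in the order above. Depth limits NR3C2 most, with at most 18 counts in a library. With 2 samples a group, a library left out leaves a lone sample that is assumed to vary like the other groups.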
